A study of Mus musculus with 37 samples.

Results

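The genes described here lie near Ptpn1, the gene of the tyrosine phosphatase PTP1B, on mouse chromosome 2. The list held 10 symbols, Slc2a10, Ptgis, Cebpb, Adnp, Pard6b, Dpm1, Nfatc2, Atp9a, Tshz2 and Zbp1, and each was read from a probe set annotated to that symbol alone. The Adnp probe set carries a further symbol, so Adnp was not read, and 9 of the 10 were measured among 19937 genes. All 9 passed the filter on dim genes, which kept 16865 genes for testing. Of the 10, 5 had been picked because their levels differed between PTP1B knockout and wild-type glands in these arrays. Their genotype differences are therefore given as a description, with standard errors (SE) and no p-value, and a count of those past a threshold describes the choice and tests nothing.

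When a gene is deleted in embryonic stem cells of one strain and the line is then backcrossed to another strain, the DNA on both sides of the deleted gene tends to stay that of the stem cell strain. Genes in such a flanking stretch can differ between knockout and wild-type mice because of their own sequence variants as well as because of the deletion. The neighbours of Ptpn1 have unrelated functions: sugar transport, prostacyclin synthesis, mannosylation, phospholipid flipping, cell polarity, transcription and innate immunity. Any flanking DNA of another strain left in these KO mice would go together with the deletion of PTP1B by design, so their effects cannot be told apart. Whether such DNA remains around Ptpn1 here was not tested.

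The study measured total RNA of mouse mammary glands on 37 Affymetrix whole-transcript arrays. Wild-type mice (WT, PTP1B +/+) and knockout mice (KO, PTP1B -/-) were both on the FVB strain, and the KO line had been backcrossed for at least 7 generations. Females were 12 weeks old at mating, received no treatment and were taken as nulliparous mice in oestrus (P0) or while pregnant, on day 3 (P3), day 7 (P7), day 10 (P10) or day 15 (P15). In the order of the stages there were 4, 3, 4, 3 and 4 WT arrays and 4, 3, 5, 3 and 4 KO arrays. The labels name no tissue-restricted promoter for the deletion. They do not say whether replicates came from separate animals, so p-values measure the spread between these samples, which may be technical. In whole glands, fewer cells of a type and less RNA per cell cannot be told apart.

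The luminal keratin gene Krt8 lay between 11.08 and 12.49 log2 units in the 37 arrays and was above 98.9% of genes, and Epcam lay between 9.22 and 10.41. Array medians ran from 6.52 to 6.79. On marker scores (means of log2 values centred per gene), 3 arrays had high lymphocyte markers: KO P10 replicates 2 and 3, at 3.82 and 3.81, and WT P7 replicate 1, at 1.04. Another 3 had high skeletal muscle markers, at 4.86 in WT P0 replicate 4, 5.18 in KO P3 replicate 1 and 2.30 in KO P7 replicate 3. Ptpn1 itself lay between 7.90 and 9.06 in the 18 WT arrays and between 5.36 and 6.49 in 18 of the 19 KO arrays. The array labelled KO P15 replicate 3 had a Ptpn1 value of 8.68, inside the WT range, which goes against its label. These 7 arrays are called the arrays that stand apart, and values without them are given where they differ. Without them KO P10 is represented by replicate 1 alone, so P10 values of KO glands then rest on that array.

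**Figure D1:**
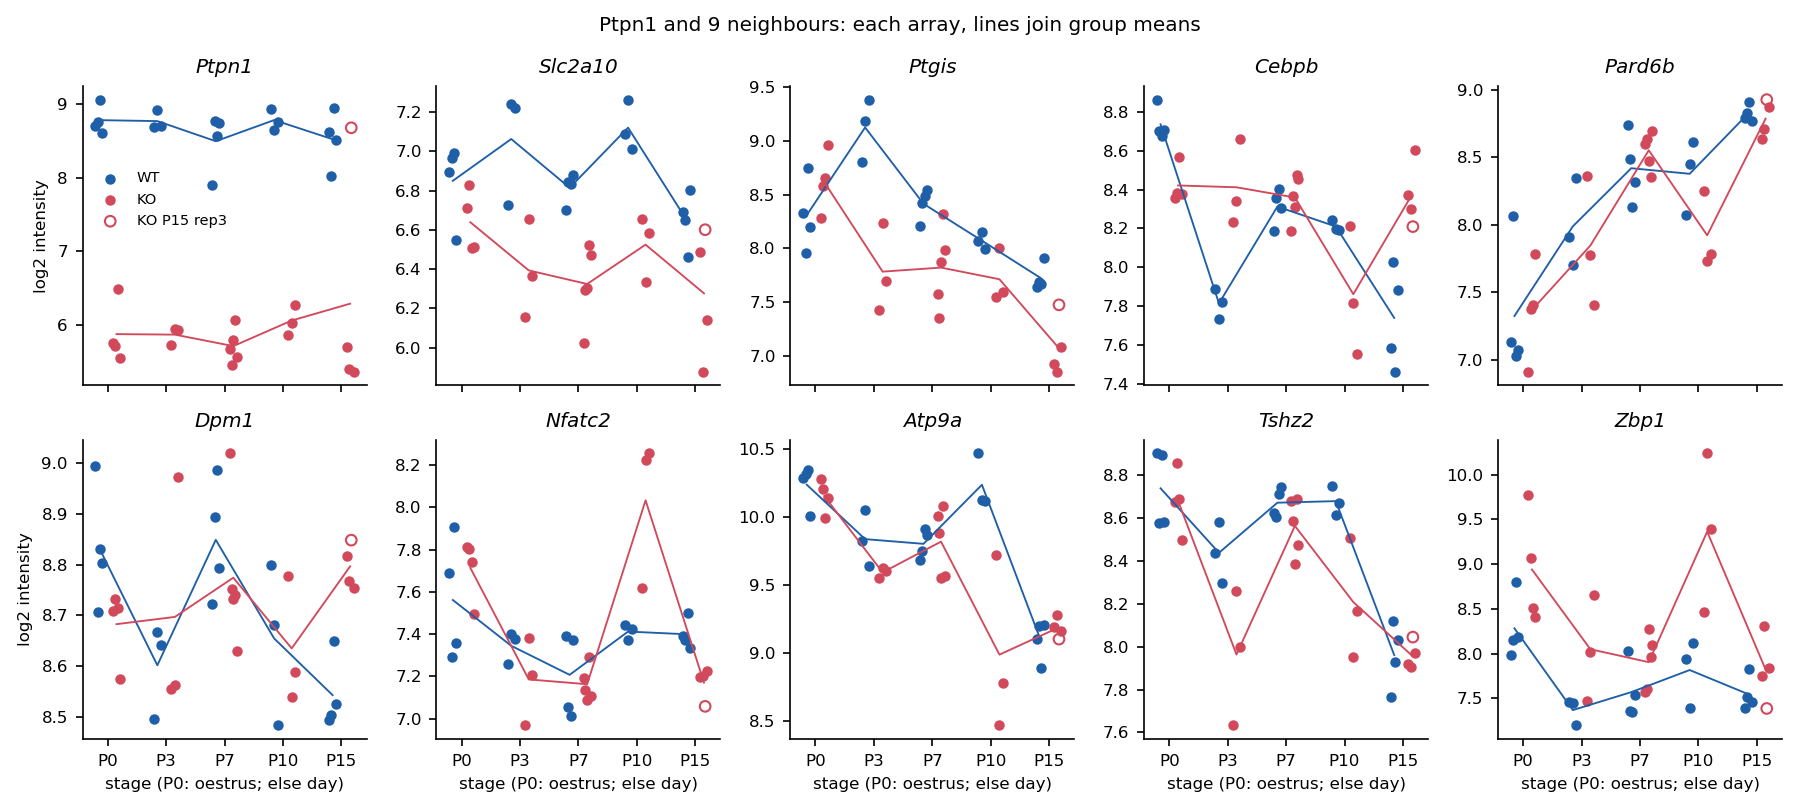
Log2 intensity of Ptpn1 and 9 neighbours in each of the 37 arrays against stage (P0 in oestrus, P3 to P15 days of pregnancy), WT in blue and KO in red, with lines joining group means and an open circle for the array labelled KO P15 replicate 3. Slc2a10 is lower in KO at each stage, Zbp1 is higher, Pard6b climbs with pregnancy in both genotypes, and the open circle for Ptpn1 lies among the WT points at 8.68.

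As log2 differences of KO minus WT averaged over the 5 stages, the wider ones were Ptgis at -0.52 ± 0.09 (SE), Slc2a10 at -0.47 ± 0.07, Atp9a at -0.29 ± 0.08, Tshz2 at -0.22 ± 0.05 and Zbp1 at 0.70 ± 0.14. The others were Cebpb at 0.12 ± 0.06, Pard6b at -0.09 ± 0.10, Nfatc2 at 0.07 ± 0.06 and Dpm1 at 0.02 ± 0.04. A gene is called here where its limma adjusted p is below 0.05, and 4 of the 9 passed that threshold as lower and 1 as higher, beside 2.43% of all tested genes (1.13% lower and 1.30% higher). Since 5 were picked on this contrast, nothing is read from that count. The median over the 9 was -0.09, against -0.01 over all 16865 genes. Ptpn1 differed by -2.71 ± 0.19.

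Among the listed neighbours the size of the difference did not follow distance from Ptpn1. Distance was counted in tested genes along the chromosome in RefSeq order. Some neighbours had been picked for their genotype difference, so nothing is read from their positions or ranks. The 2 nearest neighbours on the list, Cebpb at 2 genes before Ptpn1 and Pard6b at 2 genes after it, had small differences, as did Dpm1 at 3 genes after and Nfatc2 at 6 genes after. Atp9a lay 7 genes and Tshz2 10 genes after Ptpn1. Ptgis lay 10 genes before, Slc2a10 22 genes before and Zbp1 31 genes after. With respect to size among the 100 tested genes within 50 positions of Ptpn1, Zbp1 ranked 1, Ptgis 2, Slc2a10 3, Atp9a 4 and Tshz2 7, while Cebpb ranked 18, Pard6b 31, Nfatc2 42 and Dpm1 75.

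The other genes in the stretch showed no call. Within 50 positions of Ptpn1, 0 of the 91 tested genes outside the list were called in the mean over stages, and the median size of their difference was 0.0489, against 0.0519 for 15475 genes on other chromosomes. The list had taken every called gene there, so the 5 calls among all 100 genes (5.0%) and the 0 outside the list state the same fact. The median size over all 100 genes was 0.0551. The choice of the list enters both medians of this stretch, so nothing is read from them. From 51 to 100 positions away 4 of 100 were called (4.0%), and further along the chromosome 22 of 1133 (1.94%), beside 378 of 15475 (2.44%) on other chromosomes. The genes directly beside Ptpn1 were Ripor3, at 0.04, and A530013C23Rik, at -0.01. Zfp831 had the largest difference outside the list within 50 positions, at 0.27, without a call, and was picked out after its value was seen. Its difference was 1.45 at P10, where KO replicates 2 and 3 were lymphocyte-rich, and between -0.22 and 0.18 at the other stages.

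**Figure D2:**
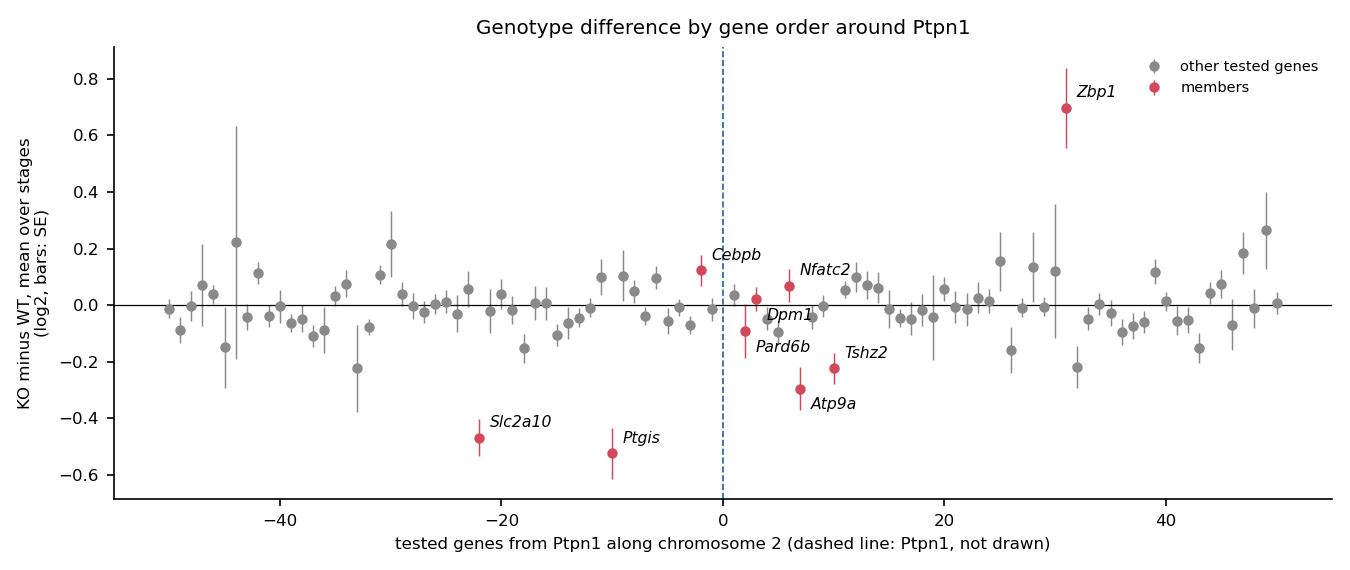
KO minus WT difference averaged over the 5 stages (log2, bars are SE) against position in tested genes from Ptpn1 along chromosome 2 (Ptpn1 not drawn), with the listed neighbours in red and other tested genes in grey. The large differences belong to Zbp1 at 0.70, Ptgis at -0.52 and Slc2a10 at -0.47, none of which is among the genes closest to Ptpn1. Since 5 of the listed neighbours were picked for their genotype difference, nothing is read from these positions.

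Slc2a10 encodes the facilitative glucose transporter GLUT10. Its log2 values at P0 were 6.90, 6.97, 6.99 and 6.55 in WT and 6.71, 6.83, 6.51 and 6.51 in KO, so the genotypes overlapped. They were 6.73, 7.24 and 7.22 against 6.16, 6.66 and 6.37 at P3. At P7 they were 6.70, 6.84, 6.83 and 6.88 against 6.02, 6.29, 6.31, 6.52 and 6.47. Every KO array was below every WT array at both of these stages. At P10 the WT arrays read 7.09, 7.26 and 7.01 and the KO arrays 6.66, 6.33 and 6.58, again with no overlap. At P15 the values were 6.69, 6.65, 6.46 and 6.80 in WT and 6.49, 5.88, 6.60 and 6.14 in KO, of which 6.60 is the array with Ptpn1 in the WT range. All 19 KO arrays lay below the WT median of their stage, and KO was lower in 66 of the 70 within-stage pairs of arrays (94.3%). The pairs share arrays, and genotype had entered the choice of neighbours. These counts, and the like counts of KO arrays given below for other neighbours, therefore describe and test nothing. The stage differences were -0.21, -0.67, -0.49, -0.60 and -0.37 from P0 to P15, and the last became -0.48 without the array labelled KO P15 replicate 3 and -0.24 without KO P15 replicate 2.

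Ptgis, 10 genes before Ptpn1, encodes prostacyclin synthase, an enzyme made in stromal and vascular cells. At P0 it read 8.33, 7.95, 8.75 and 8.20 in WT and 8.28, 8.58, 8.65 and 8.96 in KO, where KO was the higher by 0.31 ± 0.19 with overlapping arrays. At P3 it read 8.80, 9.18 and 9.38 in WT and 7.43, 8.23 and 7.70 in KO, a difference of -1.34 ± 0.22. No P3 arrays of the genotypes overlapped. The P15 values of 7.64, 7.69, 7.67 and 7.91 in WT lay above 6.93, 6.86, 7.48 and 7.09 in KO, and the difference was -0.64, or -0.77 without the array labelled KO P15 replicate 3. At P7 it read 8.20, 8.42, 8.48 and 8.54 in WT and 7.57, 7.36, 7.87, 8.32 and 7.99 in KO, and at P10 8.07, 8.15 and 8.0 against 7.55, 8.0 and 7.6. The differences there were -0.59 and -0.36, and 1 KO array at each of these stages reached the lowest WT arrays. Over stages 15 of 19 KO arrays lay below the WT median of their stage.

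Ptgis and Slc2a10 varied together over the 37 arrays (Pearson r of 0.66, which the arrays' shared genotype and stage enter) and both followed stromal markers. Of 19 measured fibroblast and matrix genes 0 were higher and 19 lower in KO over stages, 9 of them called, and their score differed by -0.23. That score lay between -0.93 and -0.60 in KO P15 arrays and between -0.33 and -0.16 in WT P15 arrays, while at P0 it was higher in KO by 0.26. Its r over 37 arrays was 0.79 with Ptgis and 0.59 with Slc2a10. With the score as a covariate the differences were -0.30 for Ptgis and -0.25 for Slc2a10. The score itself differed by genotype, so this fit cannot fully separate it from genotype. Whether stromal content has a part in these differences was not tested.

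Atp9a, an endosomal phospholipid-transporting P4-type ATPase 7 genes after Ptpn1, differed by genotype at P10. Its P10 values were 10.47, 10.13 and 10.11 in WT and 9.72, 8.47 and 8.78 in KO, a difference of -1.25 ± 0.19. The lower KO values belonged to the lymphocyte-rich replicates 2 and 3, and replicate 1 at 9.72 was closer to WT. The other differences were -0.08 (P0), -0.24 (P3), 0.02 (P7) and 0.08 (P15). Of these stages P3 was the one whose arrays did not overlap, with 9.83, 10.05 and 9.64 in WT and 9.55, 9.62 and 9.60 in KO. Without the arrays that stand apart the P10 difference was -0.52 and the mean over stages -0.15 ± 0.06.

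Tshz2, a teashirt-family zinc finger transcription factor 10 genes after Ptpn1, was lower in KO at P3 and P10. It read 8.44, 8.58 and 8.29 in WT and 7.63, 8.26 and 8.0 in KO at P3, and 8.75, 8.62 and 8.67 against 8.51, 7.95 and 8.16 at P10. The arrays of the genotypes did not overlap at either stage. The differences were -0.47 at both stages and lay between -0.11 and 0.00 at P0, P7 and P15. The lower KO P10 values, 7.95 and 8.16, were those of the lymphocyte-rich replicates 2 and 3. Without the arrays that stand apart, which leaves KO P10 replicate 1 alone, the P10 difference was -0.17. Tshz2 was followed closely by the matrix score, with an r of 0.83 over 37 arrays, and its mean difference became -0.08 with that score as a covariate. That fit cannot fully separate the score from genotype. Without the arrays that stand apart the mean difference was -0.14. With the mean of both Tshz2 probe sets, of which the second is dim, it was -0.13. The P3 difference was -0.31 without KO P3 replicate 1. Atp9a and Tshz2 varied together with an r of 0.83 over the 37 arrays.

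Zbp1, the sensor of Z-form nucleic acids that can trigger necroptosis, was higher in KO at each of the 5 stages. At P0 it read 7.99, 8.16, 8.80 and 8.18 in WT and 9.78, 9.06, 8.51 and 8.41 in KO, at P3 7.46, 7.45 and 7.20 against 7.47, 8.02 and 8.66. The P10 values were 7.94, 7.39 and 8.12 in WT and 8.46, 10.24 and 9.39 in KO. The P0 arrays overlapped, with WT replicate 3 above KO replicates 3 and 4, while at P3 and P10 every KO array was above every WT array. At P7 it read 8.03, 7.36, 7.35 and 7.54 in WT and 7.57, 7.61, 8.28, 7.97 and 8.10 in KO, where the genotypes overlapped through the lymphocyte-rich WT replicate 1. The P15 values, 7.39, 7.52, 7.83 and 7.46 against 7.75, 8.31, 7.39 and 7.84, overlapped as well. The differences were 0.66, 0.68, 0.33, 1.54 and 0.27 from P0 to P15, and the last became 0.42 without the array labelled KO P15 replicate 3. Single arrays moved several of them: P0 was 0.38 without KO P0 replicate 1, P3 was 0.38 without KO P3 replicate 3 and 0.97 without KO P3 replicate 1, and P15 was 0.11 without KO P15 replicate 2. Of 19 KO arrays 18 exceeded the stage's WT median. The P10 difference was 0.64 without the arrays that stand apart, when KO P10 is represented by replicate 1 alone.

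Zbp1 is itself induced by interferon, and its r with a score of 14 other interferon-induced genes was 0.94 over 37 arrays. All 14 measured of the 17 listed were higher in KO over stages, 11 of them called, and their score differed by 0.59. The score ran from 0.51 to 1.97 in KO P10 arrays and from -0.15 to 0.24 in WT P10 arrays. With the score as a covariate the Zbp1 difference over stages was 0.09. Since the score was itself higher in KO at each stage, this fit cannot fully separate it from genotype. The 3 genes most like Zbp1 over the arrays were Dhx58, Usp18 and Oasl2, with r of 0.96, 0.95 and 0.94.

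Nfatc2, a calcineurin-dependent transcription factor best known from T cells, changed direction between stages. At P10 it read 7.44, 7.37 and 7.42 in WT and 7.62, 8.23 and 8.26 in KO, a difference of 0.62 ± 0.14, and at P15 7.39, 7.37, 7.5 and 7.34 in WT against 7.20, 7.20, 7.06 and 7.23 in KO, a difference of -0.23 ± 0.12. Arrays did not overlap at either stage. At P0 they did, with 7.69, 7.29, 7.91 and 7.36 in WT and 7.81, 7.81, 7.74 and 7.5 in KO, and likewise at P3 and P7, where differences were -0.16 and -0.04. The 2 high KO P10 values are the lymphocyte-rich replicates, and without the arrays that stand apart the P10 difference was 0.21. The lymphocyte score differed at P10 by 2.79, all 16 measured markers being higher in KO there.

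**Figure D3:**
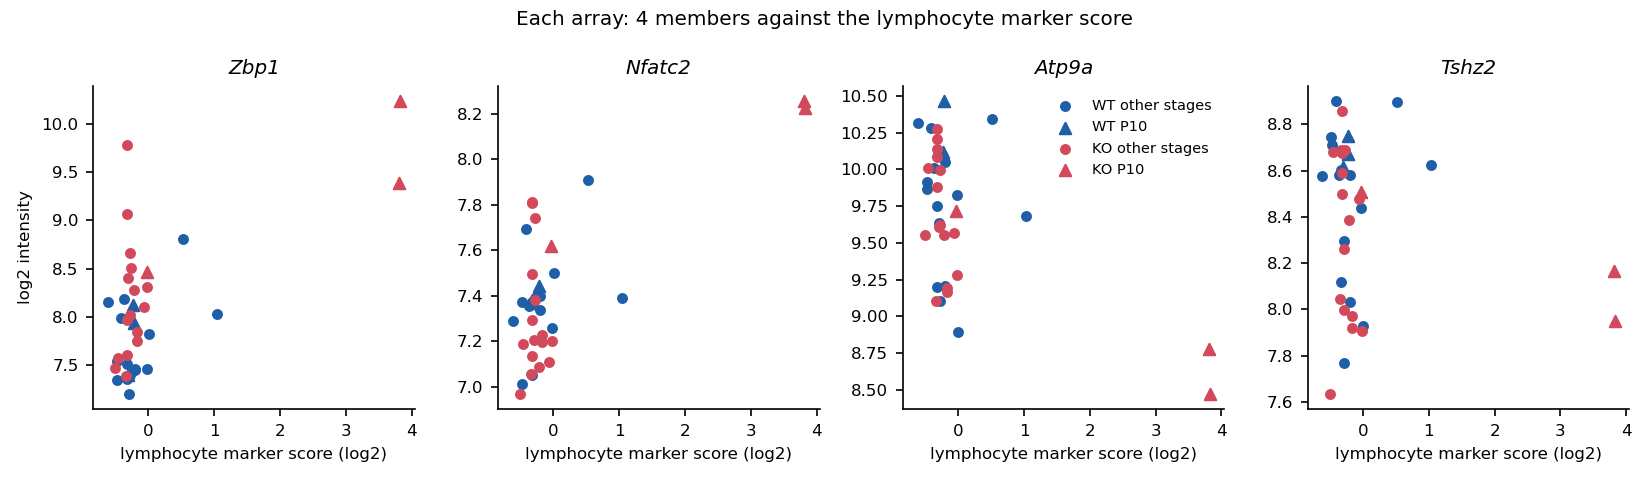
Log2 intensity of Zbp1, Nfatc2, Atp9a and Tshz2 in each array against the lymphocyte marker score of that array (log2, centred), with P10 arrays as triangles, WT in blue and KO in red. KO P10 replicates 2 and 3 sit apart at scores of 3.82 and 3.81, with Nfatc2 at 8.23 and 8.26 and Atp9a at 8.47 and 8.78.

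Cebpb encodes C/EBPbeta, a transcription factor known for its part in mammary alveolar development. It read 8.86, 8.70, 8.67 and 8.71 in WT and 8.36, 8.39, 8.57 and 8.38 in KO at P0, where each KO array was the lower. At P3 the order was the opposite, with 7.89, 7.73 and 7.82 in WT and 8.23, 8.34 and 8.66 in KO. At P15 KO was again the higher, with 7.58, 8.03, 7.46 and 7.88 in WT and 8.37, 8.30, 8.21 and 8.61 in KO. The differences were -0.32 ± 0.12, 0.60 ± 0.14 and 0.63 ± 0.12 at these stages, so that the mean over stages of 0.12 hides differences of both signs. At P7 the values of 8.19, 8.36, 8.40 and 8.30 in WT and 8.19, 8.37, 8.31, 8.48 and 8.46 in KO lay in the same range. At P10 it read 8.24, 8.20 and 8.19 in WT and 8.21, 7.82 and 7.55 in KO, the lower KO values being those of the lymphocyte-rich replicates. The difference there was -0.35, and it was 0.00 without the arrays that stand apart, when KO P10 is replicate 1 alone.

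Pard6b, which binds atypical protein kinase C and CDC42 in the cell polarity complex, and Dpm1, the catalytic subunit of dolichol-phosphate mannose synthase, differed little by genotype. The Pard6b differences lay between -0.46 and 0.13 and the genotypes overlapped at each stage. The widest was at P10, with 8.07, 8.45 and 8.61 in WT and 8.25, 7.73 and 7.78 in KO. Without the arrays that stand apart it was -0.13, while the P3 difference went from -0.14 to -0.40 and the P7 difference from 0.13 to 0.26, so that P3 was then the widest. Dpm1 read 8.49, 8.5, 8.65 and 8.53 in WT and 8.82, 8.77, 8.85 and 8.75 in KO at P15, with no overlap and a difference of 0.25 ± 0.09. At the other stages its differences lay between -0.15 and 0.10 and the arrays overlapped.

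Counted in the order of the stages, the arrays of the genotypes did not overlap for 1, 6, 1, 5 and 4 of the 9 neighbours. The same held for 8.04%, 8.40%, 1.78%, 25.7% and 19.1% of all tested genes, and since the contrast chose neighbours nothing is read from these shares. Over all 37 arrays 0 tested genes, Ptpn1 included, had WT and KO arrays that did not overlap. Without the array labelled KO P15 replicate 3 it was 1 gene, Ptpn1, and no neighbour.

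The array labelled KO P15 replicate 3 was read gene by gene, since its Ptpn1 value of 8.68 lies among WT, at 8.02 to 8.94, and far from its fellow KO P15 arrays, at 5.36 to 5.70. For 4 neighbours, Ptgis, Cebpb, Dpm1 and Nfatc2, the WT arrays and the other KO arrays of P15 did not overlap. Ptgis was at 7.48, between WT at 7.64 to 7.91 and the remaining KO arrays at 6.86 to 7.09, and nearer the WT mean. Cebpb was at 8.21, between 7.46 to 8.03 in WT and 8.30 to 8.61 in the other KO arrays, and nearer the KO mean. Dpm1 at 8.85 lay on the KO side beyond the other KO arrays, at 8.75 to 8.82, and so did Nfatc2 at 7.06, below 7.20 to 7.23. So 1 of the 4 was nearer the WT mean (25%), and among all tested genes with such separate arrays 1576 of 4485 were (35.1%).

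For the remaining 5 neighbours the P15 arrays of the genotypes overlap, so the array cannot be placed by them. Slc2a10 at 6.60 lay within WT, at 6.46 to 6.80, and above the 3 remaining KO arrays, at 5.88 to 6.49. Zbp1 at 7.39 was at the lower edge of WT, whose arrays ran from 7.39 to 7.83, while KO replicates 1, 2 and 4 ran from 7.75 to 8.31. Atp9a at 9.10 and Tshz2 at 8.04 were inside their WT ranges, and Pard6b at 8.93 was above all other P15 arrays. Neither label was given to the array by these values, and it was kept as labelled with values also given without it.

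**Figure D4:**
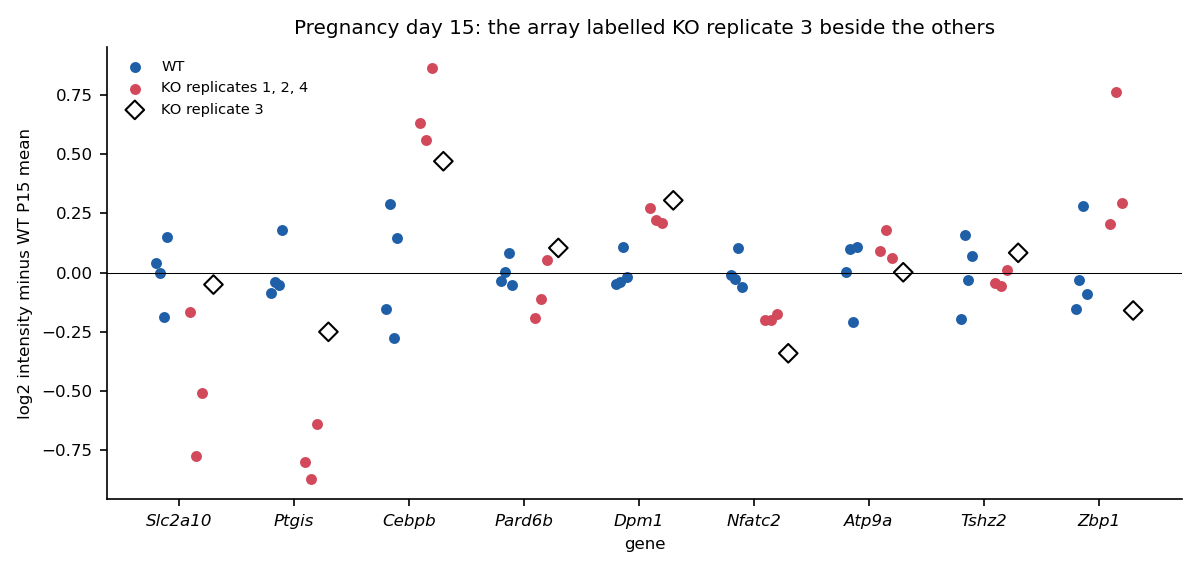
Log2 intensity minus the WT P15 mean for the 9 neighbours at P15, with WT arrays in blue, KO replicates 1, 2 and 4 in red and the array labelled KO P15 replicate 3 as an open diamond. The diamond lies with WT for Slc2a10, between the groups for Ptgis and Cebpb and on the KO side for Dpm1 and Nfatc2.

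How far the genotype differences moved with the fit varied between neighbours. With each array left out in turn the mean over stages ran from -0.50 to -0.44 for Slc2a10, -0.57 to -0.49 for Ptgis, 0.61 to 0.79 for Zbp1, -0.37 to -0.24 for Atp9a and -0.25 to -0.19 for Tshz2. The number past the threshold, which tests nothing for genes picked on this contrast, was 3 of 9 without WT P3 replicate 2 or KO P10 replicate 2, instead of 5. Of all genes 1.15% and 0.925% were called in these fits, against 2.43% with all arrays. Without the arrays that stand apart the mean was -0.47 for Slc2a10, -0.57 for Ptgis and 0.61 for Zbp1, and it was smaller for Atp9a at -0.15 and Tshz2 at -0.14. With the interferon score as a covariate Ptgis stood at -0.51, Slc2a10 at -0.38, Tshz2 at -0.20, Atp9a at -0.18 and Zbp1 at 0.09. Under that covariate 0 of the 9 were past the threshold, and 1 of 16865 genes was. The SE of Ptgis was 0.12 in that fit, against 0.09 in the main fit. The interferon score was itself higher in KO at each stage, by 0.33 (P15) to 1.01 (P10). Such a fit cannot fully separate the score from genotype, and nothing is read from the lost calls.

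**Figure D5:**
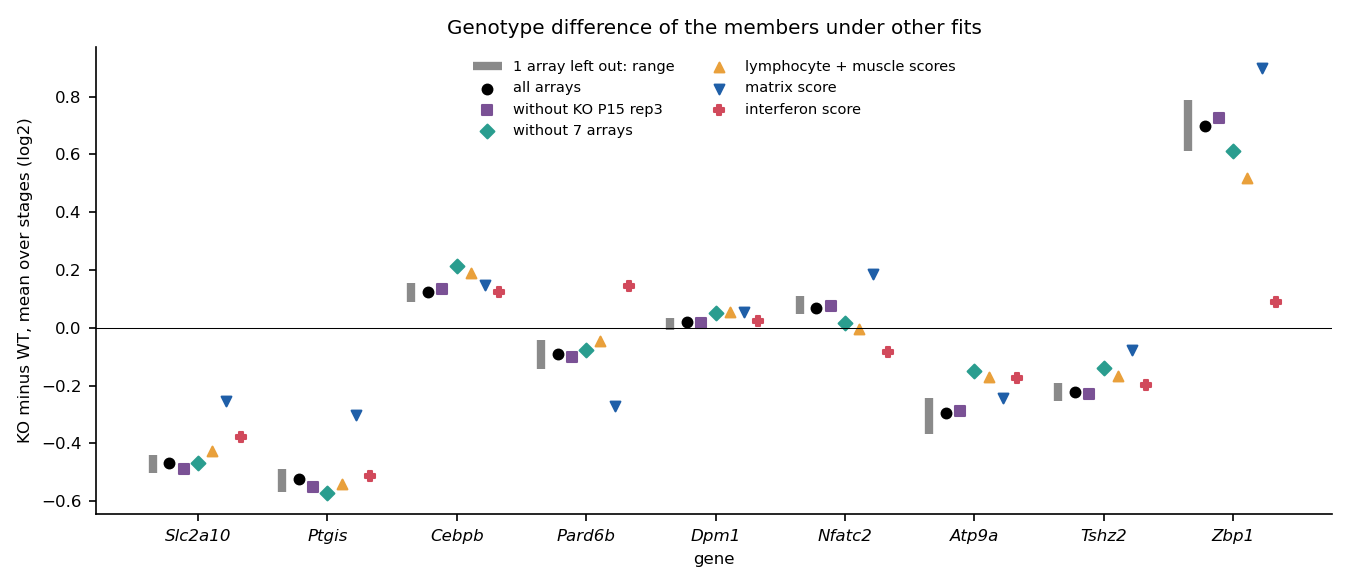
KO minus WT difference averaged over stages (log2) of the 9 neighbours under other fits: all arrays (black), without the array labelled KO P15 replicate 3, without 7 arrays, and with marker scores as covariates, with grey bars for the range over fits with 1 array left out. Slc2a10, Ptgis, Atp9a and Tshz2 stay below 0 and Cebpb and Zbp1 above 0 in each fit drawn. The Cebpb mean averages stages of both signs, and Zbp1 comes down from 0.70 to 0.09 with the interferon score. That score was itself higher in KO, so this fit cannot fully separate it from genotype.

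Stage was not used to choose the neighbours, and their course through pregnancy was tested with limma within each genotype. Each stage was set against that genotype's own P0 arrays, which all its stage contrasts share. The genotype differences behind the choice came from the same arrays, so stage calls of neighbours picked on them are not independent of that choice. In WT glands 7 of 9 varied over stages by limma's F test, where 66.0% of all genes did, and Nfatc2 (adjusted p = 0.134) and Zbp1 (adjusted p = 0.0795) did not pass. In KO glands it was 7 of 9 against 64.3%, and Slc2a10 (adjusted p = 0.126) and Dpm1 (adjusted p = 0.456) did not pass. These shares lie near those of all genes. Slc2a10 passed narrowly in WT (adjusted p = 0.0446), and it did not pass in 14 of the 37 fits with 1 array left out (largest adjusted p 0.112), with further quantile normalisation (0.161), with median centring (0.179) or with a replicate block (0.0785). In KO it passed without the array labelled KO P15 replicate 3 (adjusted p = 0.0468). Cebpb in KO (adjusted p = 0.00177) did not pass without the arrays that stand apart (0.646), with lymphocyte and muscle scores as covariates (0.695) or without KO P10 replicate 3 (0.0739). With the matrix score as a covariate Slc2a10 and Dpm1 did not pass in WT (0.0582 and 0.0504).

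At P3 2 of the 9 had risen in WT (11.6% of all genes) and 2 had fallen (6.50%), and in KO 0 had risen (7.80%) and 4 had fallen (11%). At P7 1 had risen and 3 had fallen in both genotypes, beside 15.5% and 13.8% of all genes in WT and 7.84% and 8.34% in KO. At P10 1 had risen (11.7%) and 1 had fallen (9.71%) in WT, and 0 had risen (14.4%) and 4 had fallen (16.3%) in KO. Pard6b was the riser at P7 and P10.

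By day 15 of pregnancy 6 of the 9 had fallen in WT glands and 1 had risen, where 27.3% of all genes fell and 21.6% rose. In KO glands the counts were also 6 and 1, where 21.8% fell and 19.5% rose. The median difference was -0.58 in WT and -0.54 in KO over the 9, and -0.06 and 0.01 over all genes. The matrix score moved with stage, from 0.10 to 0.58 in KO P0 arrays to -0.93 to -0.60 in KO P15 arrays. With the score as a covariate all 7 of these KO calls and 3 of the 7 WT calls were lost. Those of Pard6b, Cebpb, Atp9a and Tshz2 in WT were kept. The score did not overlap between P0 and P15 arrays in either genotype, so such a fit cannot separate the score from stage. In KO the differences became 0.53 for Pard6b, -0.43 for Ptgis, -0.71 for Atp9a and -0.13 for Zbp1 (adjusted p = 0.582, 0.601, 0.299 and 0.952). Pard6b rose by 1.5 ± 0.20 (limma adjusted p = 5.2e-07), with WT values of 7.13, 8.07, 7.03 and 7.07 at P0 and 8.79, 8.83, 8.91 and 8.77 at P15 that did not overlap. In KO glands it rose by 1.42 ± 0.20 (limma adjusted p = 1.5e-06), from 6.91, 7.38, 7.41 and 7.78 to 8.63, 8.71, 8.93 and 8.88, again without overlap. It had already risen by 1.09 ± 0.20 in WT and 1.18 ± 0.19 in KO glands at P7. Its r with the score of 16 epithelial markers was 0.76 over 37 arrays, and the 3 genes most like it were Susd4, Tjp3 and Tmtc4, with r of 0.96, 0.95 and 0.94.

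Atp9a fell by 1.13 on the log2 scale in WT (SE 0.16, limma adjusted p = 9.2e-07), from 10.28, 10.32, 10.34 and 10.01 at P0 to 9.10, 9.20, 8.89 and 9.21 at P15. In KO it fell by 0.97 (SE 0.16, limma adjusted p = 1.2e-05), from 10.27, 10.21, 9.99 and 10.14 to 9.19, 9.28, 9.10 and 9.16. P0 and P15 arrays did not overlap in either genotype. Its r with 9 white adipocyte markers was 0.85 over 37 arrays, and Wwc2, Cavin2 and Aoc3 were most like it, with r of 0.95, 0.93 and 0.93. The adipocyte score lay between 0.27 and 0.50 in WT P0 and between -0.87 and -0.54 in WT P15 arrays, and its part in the fall of Atp9a was not tested. At P10 the KO difference from P0 was -1.16 (limma adjusted p = 1.2e-05). It was not called with lymphocyte and muscle scores as covariates, at -0.46 (limma adjusted p = 0.143). Without the arrays that stand apart, when KO P10 is replicate 1 alone, it was -0.43.

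Tshz2 fell by 0.78 in WT (SE 0.12, limma adjusted p = 2.0e-06), from 8.90, 8.58, 8.90 and 8.58 to 7.77, 8.12, 7.93 and 8.03. In KO it fell by 0.72 (SE 0.12, limma adjusted p = 7.6e-06), from 8.68, 8.86, 8.69 and 8.5 to 7.92, 7.90, 8.04 and 7.97. Again no P15 array reached the P0 arrays of its genotype. With the mean of both probe sets the differences were -0.42 in WT and -0.35 in KO (limma adjusted p = 0.000241 and 0.00154). In KO glands Tshz2 was lower than at P0 already at P3, by 0.72 (limma adjusted p = 0.000308). The matrix gene Fbln5 was most like it, with an r of 0.91, followed by Fam171a1 and Mturn, both at 0.91.

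Cebpb fell in WT glands at all 4 pregnancy stages, where it fell by 0.92, 0.42, 0.53 and 1.0 in the order of the days (limma adjusted p = 2.4e-05, 0.00781, 0.00455 and 3.9e-08), and no pregnant WT array reached the P0 arrays. Each of these calls held with each array left out. In KO glands the P15 difference was -0.05 ± 0.12 (limma adjusted p = 0.778), and Cebpb was called at P10, with a fall of 0.56 (adjusted p = 0.00114). The P10 call was lost with lymphocyte and muscle scores as covariates, at -0.20 (limma adjusted p = 0.545). Without the arrays that stand apart, when KO P10 is replicate 1 alone, the P10 difference was -0.21. Whether the 2 courses differ was not tested, as genotype had entered the choice of genes. Plcd3, Ilrun and Mlycd were most like Cebpb, with r of 0.84, 0.83 and 0.82.

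Ptgis rose in WT at P3, by 0.81 ± 0.20 (limma adjusted p = 0.00608), and was lower than at P0 by P15, where it had fallen by 0.58 (SE 0.19, adjusted p = 0.0121). Leaving out WT P3 replicate 3 ended the first call (0.68, adjusted p = 0.0695), and leaving out WT P0 replicate 3 ended the second (-0.43, adjusted p = 0.0731). In KO glands Ptgis was lower than at P0 at each of the 4 stages, with differences of -0.83, -0.79, -0.90 and -1.53 in the order of the days (limma adjusted p = 0.00518, 0.00257, 0.00124 and 1.3e-07). Leaving out KO P3 replicate 1 ended the call at that stage, at -0.65 (adjusted p = 0.0569). Arhgap6, Ror2 and Adgrd1 followed Ptgis most closely, with r of 0.89, 0.87 and 0.86.

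Nfatc2 fell in KO glands at P3 by 0.53, at P7 by 0.55 and at P15 by 0.54 (limma adjusted p = 0.00633, 0.0015 and 0.000649), and at P10 it stood 0.32 above P0 (adjusted p = 0.0686). Leaving out the same array, KO P3 replicate 1, ended the call at P3 for Nfatc2, at -0.42 (adjusted p = 0.0632). In WT glands its P15 difference was -0.16 ± 0.12 (limma adjusted p = 0.288), and the P7 call, -0.35 (adjusted p = 0.0319), was lost in 4 fits that each left out 1 array, with adjusted p up to 0.158. Dpm1 fell in WT by 0.29 at P15 (SE 0.09, limma adjusted p = 0.00818), and in KO its difference was 0.11 (adjusted p = 0.336).

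In KO glands Zbp1 fell by 1.03 at P7 and fell by 1.12 at P15 (limma adjusted p = 0.0117 and 0.00317). The P7 call was lost without KO P0 replicate 1, whose value of 9.78 was the highest of its group, at -0.76 (adjusted p = 0.0932). In WT the falls of 0.91 at P3 and 0.73 at P15 (adjusted p = 0.0483 and 0.0434) were lost in 23 and 5 of the 37 fits that left out 1 array, with largest adjusted p of 0.186 and 0.157. Slc2a10 was lower in KO at P15 than at P0 by 0.36 (SE 0.14, limma adjusted p = 0.0401), a call that ended in 4 of the 37 such fits, with adjusted p up to 0.214, and that stood at -0.47 (adjusted p = 0.0108) without the array labelled KO P15 replicate 3. In WT none of its 4 stage contrasts passed; the largest was 0.27 at P10 (adjusted p = 0.198).

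Slc2a10 was most like Myadm, Ptpn1 and Pofut2 over the 37 arrays, with r of 0.76, 0.73 and 0.72, and Ptpn1 here carries the genotype. Dpm1 was most like Tfb2m, Cdadc1 and Odr4 (r of 0.76, 0.74 and 0.73), and Nfatc2 like Marchf1, Tgfb1 and Fermt3 (r of 0.90 for each). Nfatc2 and Zbp1 had an r of 0.77 with each other, and both were high in the lymphocyte-rich KO P10 arrays. All these correlations share stage, genotype and cell content of the arrays.

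The promoters of Slc2a10, which was lower in KO at each stage, and of Atp9a and Tshz2, which varied together, are shown as the 250 bases upstream of the start site in RefSeq (mouse assembly GRCm38.p6), 5′ to 3′ on the gene's strand. They lie at chr2:165503647-165503896 (plus strand), chr2:168742137-168742386 (minus strand, the first of 4 listed Atp9a promoters) and chr2:169632259-169632508 (plus strand). The arrays hold no binding data, and the sequences are those of the reference strain, not of these mice. Capitals mark matches to the steroid receptor palindrome ACANNNTGT, a motif picked out after the promoters were seen.
Slc2a10: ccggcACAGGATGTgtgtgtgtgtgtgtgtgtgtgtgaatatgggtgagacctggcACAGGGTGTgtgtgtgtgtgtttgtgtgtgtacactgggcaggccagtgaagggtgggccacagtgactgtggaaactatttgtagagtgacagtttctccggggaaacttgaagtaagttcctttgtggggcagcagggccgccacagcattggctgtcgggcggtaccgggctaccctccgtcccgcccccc
Atp9a: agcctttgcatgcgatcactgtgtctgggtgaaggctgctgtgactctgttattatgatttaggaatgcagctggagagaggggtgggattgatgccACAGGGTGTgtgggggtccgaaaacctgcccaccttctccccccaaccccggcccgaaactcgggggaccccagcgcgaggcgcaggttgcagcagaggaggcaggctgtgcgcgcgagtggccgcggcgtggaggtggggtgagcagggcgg
Tshz2: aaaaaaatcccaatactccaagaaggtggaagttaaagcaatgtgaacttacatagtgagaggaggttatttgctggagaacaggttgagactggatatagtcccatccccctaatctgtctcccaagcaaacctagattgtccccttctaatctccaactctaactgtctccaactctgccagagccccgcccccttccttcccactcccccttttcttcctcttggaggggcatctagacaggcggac

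Slc2a10 held 2 matches, 245 and 194 bases upstream, both beside a run of alternating g and t. The Atp9a promoter shown held 1, at 153 bases upstream, and the other listed Atp9a promoters held 0. The motif was found, on both strands, in 5.84% of 32851 promoters of this length. Promoters were listed for 7 of the 9 neighbours, 11 in all, and the steroid receptor palindrome matched 2 of the 11. The STAT5 motif TTCNNNGAA (7.02% of promoters) and the C/EBP motif TTGCNNAA (9.56%) matched 0 of the 11, and the E-box CACGTG (6.02%) matched 1, of Pard6b. A match describes letters in the window and is not a site.

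Family members and pathway partners of the neighbours at other loci were counted from a list of 51, of which 48 were measured. Over stages 3 of the 48 (6.25%) were called by genotype, beside 2.43% of all genes: Adar, the other gene with a Z-nucleic acid binding domain besides Zbp1, at 0.30 ± 0.08 (limma adjusted p = 0.0343), Cbx5, a heterochromatin protein of the HP1 family, at -0.25 ± 0.07 (adjusted p = 0.0458), and Tshz3 at -0.19 ± 0.05 (adjusted p = 0.0393). Among the partners of Slc2a10, the transporter gene Slc2a1 rose by 1.47 ± 0.14 in WT glands by P15 (limma adjusted p = 7.1e-10) and Slc2a4 fell by 1.19 (SE 0.33, adjusted p = 0.00355). Over all partners 8 of 48 rose and 20 fell in WT by P15, where 21.6% of all genes rose and 27.3% fell, and 34 (70.8%) varied over WT stages, beside 66.0% of all genes. Of the polarity partners of Pard6b, Pard3, Pard6g, Prkci and Prkcz rose in WT by P15, by 0.47, 0.66, 0.33 and 0.58 (limma adjusted p = 0.000424, 0.000137, 0.00105 and 0.0109). Its relative Pard6a fell by 0.43 (adjusted p = 6.0e-05), and Cdc42 differed by 0.05 ± 0.07 (adjusted p = 0.631). In KO glands Pard3 and Prkcz rose, by 0.28 and 0.70 (limma adjusted p = 0.0347 and 0.00293), and Pard6g differed by 0.15 (adjusted p = 0.389).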

How the data were processed

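Per the labels' protocols, total RNA was amplified to sense-strand cDNA, labelled and hybridised to Affymetrix whole-transcript arrays. The authors deposited log2 intensities of 34760 probe sets, which run from 2.10 to 13.71. The submitters' processing notes name affy. How background, summarisation and normalisation were handled, and which build was used, is not given in the sources used here. Array number limits the precision.

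Genes were named through the platform annotation where a probe set had exactly 1 symbol (21640 probe sets), with the highest mean taken where a gene had several. RefSeq GRCm38.p6 gave gene order and promoters. Genes above 4.96 (25th percentile of all values) in at least 3 arrays were tested. One limma model (limma 3.58.1, R 4.3.3) with a mean for each group covered the 37 arrays and was tested two-sided, with Benjamini-Hochberg adjustment over 16865 genes and a threshold of 0.05. The code was tested on simulated data. Tshz2 has a second, dimmer probe set. Ranges overlap where any array of one group passes one of the other.

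Named genes were Ptpn1, the listed neighbours, called genes within 50 positions, genes separating the genotypes, for each neighbour the 3 most correlated genes without predicted ones, and called partners; Ripor3, A530013C23Rik, Zfp831 and the other partners named were picked after their values were seen. The neighbours, lists and tests were chosen with earlier results of these data known. Alternatives were no filter, further quantile normalisation, median centring, a trended robust prior, array weights, a replicate block, marker scores as covariates, the mean of probe sets and arrays left out.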

Additional observations from a re-analysis of the deposited data

Results flagged for a closer look

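Of 60 groups of 4 or 5 arrays (Ptpn1 and the 9 neighbours), 5 held 1 array far from the others by Dixon's criterion, where chance alone marks about 1 in 20. Ptpn1 was 8.68 in the array labelled KO P15 replicate 3 and between 5.36 and 5.70 in the other KO P15 arrays. The remaining 4 were at P0. Cebpb was 8.86 in WT P0 replicate 1 (others 8.67 to 8.71) and 8.57 in KO P0 replicate 3 (others 8.36 to 8.39). Pard6b was 8.07 in WT P0 replicate 2, with the others between 7.03 and 7.13. Dpm1 was 8.57 in KO P0 replicate 4, with the others between 8.71 and 8.73.

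For 2 neighbours the genotypes did not overlap at several stages and the order turned between them. Cebpb was lower in KO at P0, by -0.32, and higher at P3, by 0.60, and P15, by 0.63. Nfatc2 was higher in KO at P10, by 0.62, and lower at P15, by -0.23. These differences between stages were not tested.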

How the results depend on the processing

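Of the 9 neighbours 5 were past the threshold by genotype over stages, a count that tests nothing since the rule used this contrast. With lymphocyte and muscle covariates 3 were called (0.391% of all genes), 2 with the matrix score (1.25%) and 0 with the interferon score (0.00593%), against 2.43% of all genes in the main fit. With 1 array left out 3 to 5 were called, and 3 without WT P3 replicate 2 (1.15% of all genes) or KO P10 replicate 2 (0.925%). The share of all genes moved as well, so nothing is read from these counts. The matrix and interferon scores themselves differed by genotype, so those fits cannot fully separate score from genotype. Within 25 positions of Ptpn1 4 genes were called, against 9 with array weights (when 18.3% of all genes were), 2 and 1 with the lymphocyte and muscle and the matrix scores, 0 with the interferon score, 2 without the arrays that stand apart and 2 to 6 with 1 array left out. The 0 genes that separate the genotypes became 1 without the array labelled KO P15 replicate 3, and also 1 when this was combined with stage-centred values or with no filter, both added after seeing the data. The counts of neighbours varying over stages stayed within 6 to 9 (WT) and 6 to 8 (KO) in the settings run. With the matrix score as a covariate the KO P15 minus P0 difference reversed to 0.70 for Slc2a10, 0.035 for Nfatc2 and 0.0075 for Tshz2. The other 4 KO P15 calls were lost. The score did not overlap between KO P0 and KO P15 arrays, so this fit cannot separate it from stage, and the cause was not tested. Of 36 called stage contrasts of single neighbours 23 stayed called in each fit with 1 array left out, and 12 in every setting run.

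Of 18 correlations between same-numbered replicates 13 were positive and 9 above 0.1 (from -0.525 to 0.384), so not every pair deviated together and the numbers were not taken as pairs. With a replicate block 4 neighbours were called by genotype and 255 of all genes (410 without it), 6 varied over stages in WT and 7 in KO. Under the block the P15 calls of Slc2a10 in KO (-0.36, limma adjusted p = 0.0519) and Zbp1 in WT (-0.73, adjusted p = 0.056) were lost.

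All genes called by genotype numbered 577 without the array labelled KO P15 replicate 3, 59 without the arrays that stand apart and 3091 with array weights.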
